A study of Mus musculus with 2 samples.

Results

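The 35 genes described here encode the matrix of cartilage, the factors that control it, and the small leucine-rich proteoglycans that bind collagen in bone, cartilage and tendon. They were taken by name, as cartilage collagens, SOX factors, cartilage matrix proteins and small leucine-rich proteoglycans, and each was read from every array feature (probe set) whose annotation names only that gene. This gave 70 probe sets for 35 of 18193 named genes on the array, and the rule itself uses names and no measured value, although the genes were chosen with earlier results of these arrays known. Total RNA came from primary osteoblasts, the bone-forming cells, of 5-day-old C57BL/6 mice, freed from the skull caps (calvariae) by collagenase and dispase and grown for 3 days in medium with 10% serum. After a night without serum, the control culture received fresh serum-free medium with 1 mM phosphate for 6 h and the other culture the same medium brought to 4 mM phosphate, both at pH 7.2. The added phosphate came from a sodium phosphate stock, so sodium was added with it. Each condition was 1 array, and how many mice or dishes it stands for is not given in the sources used here.

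With 1 array per condition no test was possible, no p-value is given, and every difference describes these 2 arrays. Values are MAS5 signals in arbitrary linear units, and log2 ratios are the 4 mM value minus the 1 mM value. Signals under 21.5, the median over both arrays, were raised to that floor, and each gene was read from its brightest probe set, by mean log2 signal. The only measure of error is technical: probe sets of the same gene gave log2 ratios with a standard deviation (SD) of 0.16 where both signals exceeded 400, 0.26 where the dimmer one lay between 100 and 400, and 0.42 between the floor and 100. It leaves out the spread between cultures. Of 12276 genes above the floor on at least 1 array, the median log2 ratio was -0.06.

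Cartilage is built from fibrils of type II collagen, with types IX and XI bound to them, around aggregates of the large proteoglycan aggrecan on hyaluronan. The factors SOX9, SOX5 and SOX6 act together on the genes of this matrix, and type X collagen marks the enlarged, late chondrocytes of the growth plate. The small leucine-rich proteoglycans are shorter secreted proteins, most of which bind collagen fibrils and several of which also bind growth factors. The vault of the skull forms bone directly from mesenchyme, without a cartilage model over most of its area.

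On either array all 35 genes exceeded the floor, and 16 of them had signals above 1000 on both. Prg4 alone of the 35 was 2-fold or more higher in 4 mM phosphate, and 0 were lower to that extent, where 2.30% and 2.92% of all measured genes were past those limits. At 1.5-fold, 2 were higher (Prg4 and Col10a1) and 1 was lower (Scrg1), against 7.26% and 12.1% of all measured genes. The other 32 (91.4%) lay within 1.5-fold, beside 80.6% of all measured genes. Of the 35, 23 had both signals above 400, a range where 92.6% of all genes lay within 1.5-fold. The median log2 ratio was -0.06 for all 35 and -0.09 without Prg4, next to the -0.06 of all measured genes. Values below 0 were found for 21 of 35, a share of 60.0% beside 55.9% of all measured genes. In its 2-fold counts, median and share below 0 the group therefore lay close to the array's background. More of it lay within 1.5-fold than of all measured genes, and the description below turns on single genes.

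**Figure D1:**
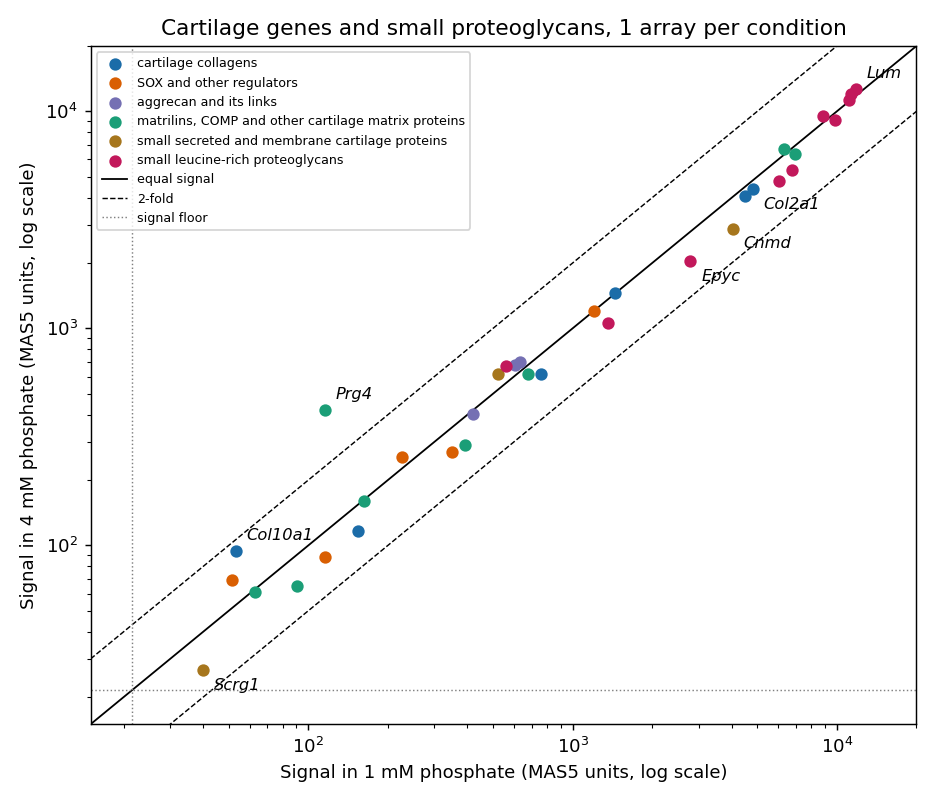
Signal of each of the 35 genes in 1 mM phosphate (horizontal) and 4 mM phosphate (vertical), both in MAS5 units on log scales, coloured by role, with 1 array per condition. The solid line marks equal signal, the dashed lines 2-fold and the dotted lines the floor of 21.5; only Prg4 (115 against 422) lies outside the 2-fold lines.

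Markers of the labelled cell type were present. All 7 osteoblast markers with a probe set naming only them exceeded the floor on each array. Of these, 4 had log2 ratios above 0 and 3 below, from -0.39 to 0.34, all within 1.5-fold. They included Col1a1, the bone collagen gene, with 9358 and 10958 on one probe set and 10139 and 11889 on the other, in 1 mM and 4 mM. Ibsp, the gene of bone sialoprotein, had 13398 and 14449, and 10166 and 10097 on its other probe set. The 3 markers below 0 were Sp7 with 1600 and 1223 (-0.39), Pth1r with 5047 and 4278 (-0.24) and Alpl with 3840 and 3373 (-0.19). The 11 chondrocyte markers are all among the 35 genes, so they are not separate from the values below. Of them 8 had ratios below 0 (72.7%, beside 55.9% of all measured genes). All 11 lay within 1.5-fold, as did 80.6% of all measured genes. Of 6 endothelial markers none was above the floor. The 10 macrophage and osteoclast markers were all above it, 9 of them with log2 ratios below 0 and a median of -0.46, and their summed signal was 17848 in 1 mM and 16471 in 4 mM. Of 5 adipocyte markers with a probe set 4 were measured, all with ratios below 0. The summed signal of all 5 went from 4104 to 3333. Pparg, the master regulator of fat cells, was more than 2-fold lower on a dim probe set, from 76.0 to 23.0 (-1.73). Tendon markers summed to 6092 and 6375, but single genes differed in direction, with Kera at the floor on both arrays. Scx, the tendon transcription factor, went from a dim 43.4 to 84.3 (0.96), but its other probe set had 29.5 and 32.0 (0.12). Tnc, a matrix protein of tendon and other tissues, went from 1976 to 3019 (0.61), and on a dim probe set from 32.1 to 93.5 (1.54). By contrast, Tnmd went from 3693 to 2957 (-0.32), Mkx from 238 to 177 (-0.43) and Thbs4 was 136 on both arrays. Of 6 skeletal muscle markers 3 were measured, and Acta1, a muscle actin, was more than 2-fold lower near the floor, from 55.9 to 21.5 (-1.37). The part of these other cell types in the values below was not tested. In RNA from a whole culture, fewer cells of a type and less RNA per cell cannot be told apart.

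The collagens of cartilage were present in this osteoblast culture and most differed little between the arrays. Col2a1, which encodes type II collagen, the main fibril protein of cartilage, had a signal of 4809 in 1 mM and 4364 in 4 mM (log2 ratio -0.14). Its single probe set gives a difference smaller than the technical SD of 0.16. Col11a2, the gene of a type XI collagen chain found inside the same fibrils, had signals of 1441 and 1457 (0.02). The 3 genes of type IX collagen, which sits on the fibril surface, all had lower signals in 4 mM. Col9a1 went from 4484 to 4067 (-0.14) and on its other probe set from 640 to 506 (-0.34). Col9a3 went from 761 to 616 (-0.31), with 665 and 490 (-0.44) on its second probe set and the last one close to the floor. Col9a2, dimmer at 154 and 117, had a ratio of -0.40. These 3 genes thus shared a direction on all 5 probe sets that exceeded the floor on each array, by 0.14 to 0.44 on the log2 scale. On the probe sets used, however, Col9a1 lay within 1 technical SD of 0 and Col9a2 and Col9a3 within 2. Ratios below 0 were found for 55.9% of all measured genes, and probe sets of 1 gene on the same 2 arrays are not independent. Col10a1, the gene of type X collagen, went the other way, from 53.2 to 94.0, which is 1.77-fold higher. Both of its signals are dim, it has 1 probe set, and its ratio of 0.82 is 1.95 times the technical SD for such signals; 6.07% of genes in that range of signal had a ratio at least as high.

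The SOX factors did not share a direction. Sox9, the master regulator of chondrocytes, had signals of 226 and 255 (log2 ratio 0.17) on its brightest probe set and 132 and 159 (0.27) on another, with its last one below the floor on both arrays. Sox6, a partner of SOX9 at cartilage genes, was lower in 4 mM on all 4 of its probe sets. These went from 349 to 269, from 268 to 187, from 271 to 170 and from 63.8 to 43.1, with log2 ratios between -0.68 and -0.37. For the brightest, 25.1% of genes of like signal had a still lower ratio. Sox5, the close relative of Sox6, was dim, with 51.4 and 69.5 (0.44) on the probe set used. Its other 2 probe sets that exceeded the floor on each array gave -0.18 and 0.73, so they do not settle a direction. Trps1, which encodes a zinc finger repressor active in growth plate cartilage and hair, had 1209 and 1196 (-0.02) on its brightest probe set, with -0.09, 0.29 and 0.65 on the others. Ihh, the gene of the hedgehog ligand that chondrocytes secrete before they enlarge, had a dim signal of 115 in 1 mM and 88.8 in 4 mM (-0.38), within 1 technical SD of 0.

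The genes of aggrecan, its link protein and a chondroitin sulfotransferase differed by less than 1.2-fold on the probe sets used. Acan, the gene of aggrecan, had signals of 604 and 675 (log2 ratio 0.16). Hapln1, encoding the link protein that locks aggrecan onto hyaluronan, had 419 and 402 (-0.06), and its other 3 probe sets spanned -0.26 to 0.06. Chst11, a sulfotransferase that adds sulfate to chondroitin chains, had 634 and 701 (0.14), while a dim second probe set went from 40.5 to 23.3 (-0.80). The 2 probe sets of Chst11 therefore disagree in sign, and the dimmer one ends close to the floor. One further probe set names Chst11 together with another gene and was not used.

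Among the matrilins, COMP and related proteins, Prg4 stood alone. Prg4, which encodes lubricin, the boundary lubricant of joint surfaces and tendon sheaths, had a signal of 115 in 1 mM and 422 in 4 mM phosphate, 3.66-fold higher (log2 ratio 1.87). The difference is 7.27 times the technical SD of 0.26 for that signal range, and 0.492% of genes of like signal had a ratio at least as high. Among all 12276 measured genes its ratio ranked 67th from the top. Prg4 has 1 probe set, so no second probe set bears on this value. Comp, a pentameric glycoprotein of cartilage and tendon, had signals of 6312 and 6715 (0.09). Matn4 and Matn1, of the matrilin family of adaptor proteins between collagen and proteoglycans, had 6926 and 6388 (-0.12) and 162 and 160 (-0.02). Matn3, another matrilin gene, was dim at 62.7 and 61.0 (-0.04). Matn2, a matrilin also made outside the skeleton, had 680 and 617 (-0.14), with 500 and 341 (-0.55) on its other probe set. Cilp, encoding a protein of the middle layer of cartilage, went from 391 to 291 (-0.43). Ucma, a small secreted protein with vitamin K-dependent glutamate residues, was lower by the same amount on both dim probe sets, from 90.5 to 64.97 and from 78.6 to 56.2 (-0.48 each). Comp, Matn1, Matn3 and Matn4 thus lay within 1 technical SD of 0, and Cilp and Ucma within 2.

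The group of small secreted and membrane proteins held the lowest ratio of the 35 genes, that of Scrg1. Cnmd, which encodes chondromodulin, a membrane-bound inhibitor of blood vessel growth in cartilage, went from 4029 to 2880 (log2 ratio -0.48). This is 3.01 times the technical SD, and 6.23% of genes with both signals above 400 had a lower ratio. Cytl1, a small secreted protein of cartilage, had 522 and 616 (0.24). Scrg1, named for its response to scrapie and also made by chondrocytes, had 39.9 and 26.5 (-0.59), but this lies within 2 technical SD for signals so near the floor. Each of these 3 genes has a single probe set.

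**Figure D2:**
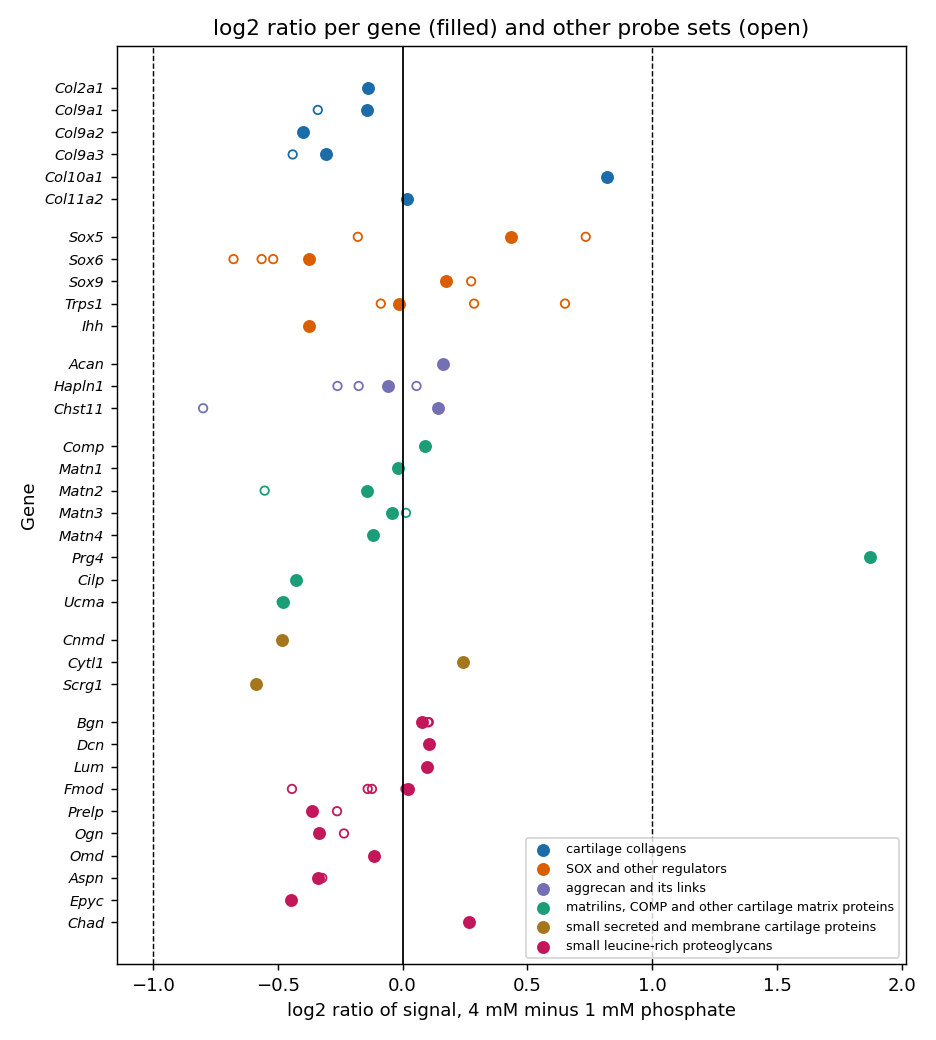
log2 ratio of signal (4 mM minus 1 mM phosphate, 1 array each) for the 35 genes, ordered and coloured by role; filled points are the probe set used for the gene and open points its other probe sets that exceed the floor on each array. Dashed lines mark 2-fold: Prg4 at 1.87 is the only point beyond them, and all 4 points of Sox6 and all 5 points of the type IX collagen genes lie below 0.

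The small leucine-rich proteoglycans were among the genes with large signals, and all 10 lay within 1.5-fold, as did 92.6% of all genes with both signals above 400. Their median log2 ratio was -0.05, with 5 ratios above 0 and 5 below. This split rested on the scaling, since after quantile normalization 9 of 10 were below 0 with a median of -0.23, and after a loess correction 9 of 10 with -0.19. Biglycan (Bgn), a proteoglycan of bone matrix that also signals to cells, had 3 probe sets with signals of 11342 and 11962, 11171 and 12017, and 10640 and 11417, all with ratios between 0.08 and 0.11. Decorin (Dcn), which binds and spaces collagen fibrils, had 8846 and 9518 (0.11), with a second probe set at the floor. Lumican (Lum), a fibril-binding proteoglycan also needed in the cornea, had 11812 and 12627 (0.10). Fibromodulin (Fmod), prominent in tendon and cartilage, had 11109 and 11267 (0.02), and its 6 probe sets spanned -0.44 to 0.02. Osteomodulin (Omd), which is typical of bone, had 9844 and 9087 (-0.12). These 5 genes differed by less than 1 technical SD on the probe sets used. Bgn, Dcn, Lum and Fmod turned to between -0.17 and -0.06 after quantile normalization.

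Asporin, osteoglycin, PRELP and epiphycan were lower in 4 mM by 1.26-fold to 1.36-fold. Aspn, whose product asporin binds collagen and calcium, went from 6062 to 4796 and on its second probe set from 3826 to 3062 (log2 ratios -0.34 and -0.32). Ogn, the gene of osteoglycin or mimecan, went from 6785 to 5375 and from 6085 to 5172 (-0.34 and -0.23). Prelp, encoding a basic protein that links basement membranes to collagen, went from 1361 to 1059 and from 270 to 225 (-0.36 and -0.26). Epyc, the gene of epiphycan of growth plate cartilage, went from 2791 to 2049 on its only probe set (-0.45). Among the small leucine-rich proteoglycans only Chad, encoding the cell-binding cartilage protein chondroadherin, had a ratio above 0.2, with 560 and 674 (0.27). With Cnmd, Aspn, Ogn, Prelp and Epyc make 5 of the 23 genes with both signals above 400 that were lower by more than 2 technical SD (0.32 on the log2 scale), a share of 21.7% beside 13.9% of all 4026 genes with such signals. None of the 23 was higher by more than 2 technical SD, beside 11.5% of those genes. With the median over probe sets Ogn (-0.29) and Prelp (-0.31) no longer passed this limit while Chst11 and Matn2 did, and setting the poly-A spikes equal (described last) put 19 of 23 past it, beside 71.6% of all such genes. The limit of 2 technical SD was chosen after these values were seen, and the shares are descriptions.

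The direction within family classes I and II rested on the scaling. By the class numbers in their older names in the RefSeq gene table, class I (Bgn, Dcn, Aspn) spanned -0.34 to 0.11, and class II (Lum, Fmod, Prelp, Omd) -0.36 to 0.10, but after quantile normalization or the loess correction all 7 were below 0. The class III genes Ogn and Epyc were at -0.34 and -0.45, and Chad, of class IV, was at 0.27. Position gave another grouping. In the RefSeq table of GRCm38.p6, used here for gene order, 8 of the 10 genes lie in 3 rows of adjacent protein-coding genes that all encode leucine-rich repeat proteins of the matrix. On chromosome 1, Optc (opticin of the eye) lay below the floor on both arrays beside Prelp and Fmod, at -0.36 and 0.02. On chromosome 10, Kera (keratocan of the cornea), also below the floor on both, stood between Lum at 0.10 and Epyc at -0.45, with Dcn at 0.11 next to Lum. On chromosome 13, Ecm2 had a dim 40.7 and 23.7, followed by Aspn, Omd and Ogn at -0.34, -0.12 and -0.34. In the rows of chromosomes 1 and 10 neighbours thus differed in the sign of their ratios on the probe sets used. However, Fmod, Dcn and Lum lay within 1 technical SD of 0, and 3 of the 6 Fmod probe sets were below 0. Fmod, Dcn and Lum were also below 0 after quantile normalization or the loess correction.

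**Figure D3:**
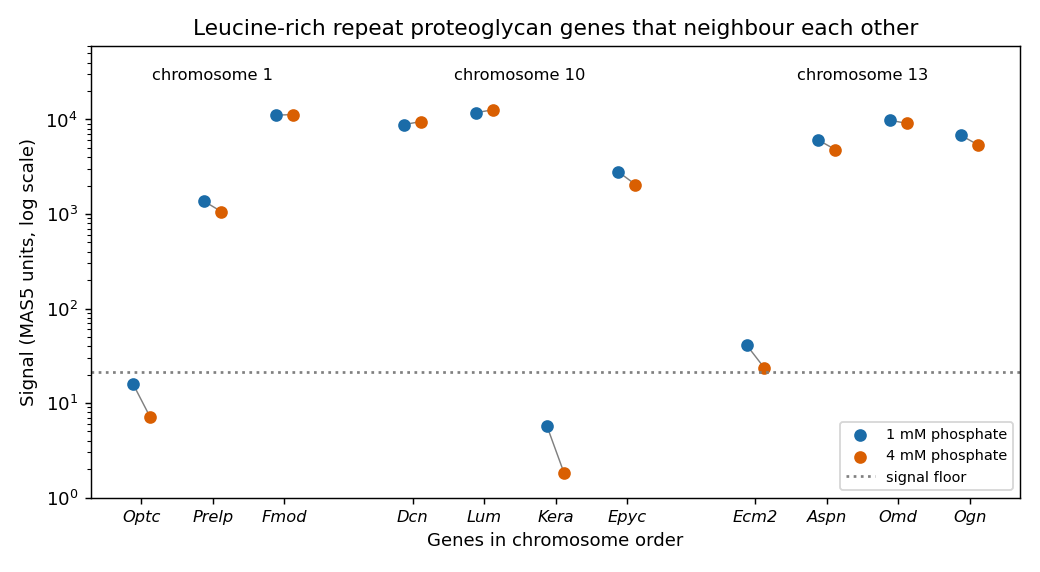
Signal in MAS5 units (log scale) of leucine-rich repeat proteoglycan genes that are adjacent on chromosomes 1, 10 and 13, in chromosome order, as deposited in 1 mM (blue) and 4 mM phosphate (orange), 1 array each; values under the dotted floor of 21.5 carry no order. Each line joins the pair of one gene, and levels of different genes are not comparable; Optc and Kera lie below the floor on both arrays.

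Promoter sequence is shown for the row on chromosome 13 and for Epyc, because 3 of these 4 genes were lower by more than 2 technical SD. Cnmd and Prelp also passed that limit and are not shown. Prelp had a match to the SOX core described below, and Cnmd was not among the genes with a match to any of the searched letters. The windows are the 250 bases before the annotated start, 5′ to 3′ on the gene's strand, from RefSeq on GRCm38.p6. Capitals mark matches on either strand to TATAAA (the TATA box) or to ACAAT (core of SOX sites); TGANTCA (AP-1) and TGACGTCA (cAMP response element) were also searched and had no match in these 4. They are chr13:49544193-49544442 for Aspn, chr13:49582212-49582461 for Omd, chr13:49607765-49608014 for Ogn and chr10:97643818-97644067 for Epyc, all on the plus strand.
Aspn: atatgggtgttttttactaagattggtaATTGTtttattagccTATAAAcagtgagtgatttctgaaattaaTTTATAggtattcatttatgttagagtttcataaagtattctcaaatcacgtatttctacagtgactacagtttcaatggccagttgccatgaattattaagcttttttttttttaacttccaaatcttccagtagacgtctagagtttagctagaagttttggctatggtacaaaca
Omd: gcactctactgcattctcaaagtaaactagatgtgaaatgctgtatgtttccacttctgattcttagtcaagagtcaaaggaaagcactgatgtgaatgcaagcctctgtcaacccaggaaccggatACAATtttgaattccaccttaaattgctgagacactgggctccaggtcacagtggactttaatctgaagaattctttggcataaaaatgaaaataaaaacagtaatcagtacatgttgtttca
Ogn: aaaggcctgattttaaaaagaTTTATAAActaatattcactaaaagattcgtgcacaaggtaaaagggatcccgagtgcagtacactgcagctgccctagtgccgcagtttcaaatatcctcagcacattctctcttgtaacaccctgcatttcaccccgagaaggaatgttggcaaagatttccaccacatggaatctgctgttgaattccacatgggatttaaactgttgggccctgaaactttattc
Epyc: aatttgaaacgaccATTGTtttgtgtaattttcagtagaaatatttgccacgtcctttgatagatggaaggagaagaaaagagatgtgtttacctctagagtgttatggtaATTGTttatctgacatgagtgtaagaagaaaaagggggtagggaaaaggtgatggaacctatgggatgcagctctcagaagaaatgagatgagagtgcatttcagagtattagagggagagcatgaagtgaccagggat

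Aspn held 2 matches to the TATA box letters and 1 to the SOX core, Omd 1 to the SOX core, Ogn 2 overlapping matches to the TATA box letters, and Epyc 2 to the SOX core. The TATA box letters in Aspn and Ogn began 178 to 229 bases before the start. The Aspn matches to the SOX core and the TATA box do not overlap. RefSeq windows were held for 25 of the 35 genes, 33 windows in all, and none was held for Prg4. By window, 11 of the 33 had a SOX core, beside 27.7% of all 32851 windows of this length. By gene, 8 of the 25 (32.0%) had one in at least 1 window. TATA box letters were found in 6 of the 33 windows, beside 12.4% of all windows, and for 6 of 25 genes. Some genes have several windows, so a share of genes and a share of windows are unlike measures. AP-1 letters were found in none of the 25 and 6.75% of all windows, and the cAMP response element in none and 1.55%. These are letter matches only.

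The other genes of cartilage and proteoglycan metabolism were read from 4 lists. Of 17 measured other chondrocyte genes none was 2-fold different, the median log2 ratio was 0.01 and 15 lay within 1.5-fold. That median is the value of Mef2c on its brightest probe set, while its other probe sets gave -0.31, -0.80, -0.50 and -0.49. With the median over probe sets the median of this list was -0.03. The extremes were Col27a1, a fibrillar collagen of cartilage, from 270 to 432 (0.68), and Fgfr3, a receptor that restrains chondrocyte growth, from 637 to 400 (-0.67), with -1.30 on its dim second probe set. Of 10 measured other leucine-rich and large proteoglycans and link proteins 1 was 2-fold higher and none lower, with a median of 0.14. Hapln4, a link protein known from brain, reached 2-fold, from 25.1 to 50.2, close to the floor, and Ecm2 was lowest at -0.78. Hapln4 was no longer 2-fold higher under 5 of the 10 alternative settings (the floors at the pooled percentile 65 and at 100, the pseudocount, quantile normalization and the poly-A spikes as reference), and the median of this list became -0.06 with a floor of 100.

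Enzymes that build the sugar chains of proteoglycans included none past 2-fold among 25 measured, with a median of -0.06. Ugdh, which makes the UDP-glucuronate used for chondroitin, heparan and hyaluronan chains, went from 1827 to 3550, 1.94-fold higher (0.96). The lowest was Chst14, a sulfotransferase for dermatan sulfate, the chain type carried by decorin and biglycan, from 583 to 379 (-0.62). Both have a single probe set. Among 10 enzymes that cleave proteoglycans or their partners 1 was 2-fold higher and none lower on the probe sets used. The median was 0.25, with 7 ratios above 0 and 3 below. Of all measured genes 2.30% were 2-fold higher and 55.9% had ratios below 0. With the poly-A spikes as reference the median of this list became -0.21, beside -0.52 for all measured genes, and 1 of its genes was 2-fold lower. Adamts4 had 252 and 335 (0.41), and on a dimmer probe set 92.4 and 187 (1.02). Adamts5 had 486 and 728 (0.58), with 0.63 and 0.12 on its other probe sets. Mmp3, encoding stromelysin, which cuts aggrecan, decorin and fibromodulin among other substrates, went from 132 to 1779, and Adamts9, an aggrecan-cleaving protease, had the lowest ratio (640 and 409, -0.65), with 0.18 on a dim probe set. Prg4 and Mmp3 were thus the genes past 3-fold over the 35 genes and these lists.

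**Figure D4:**
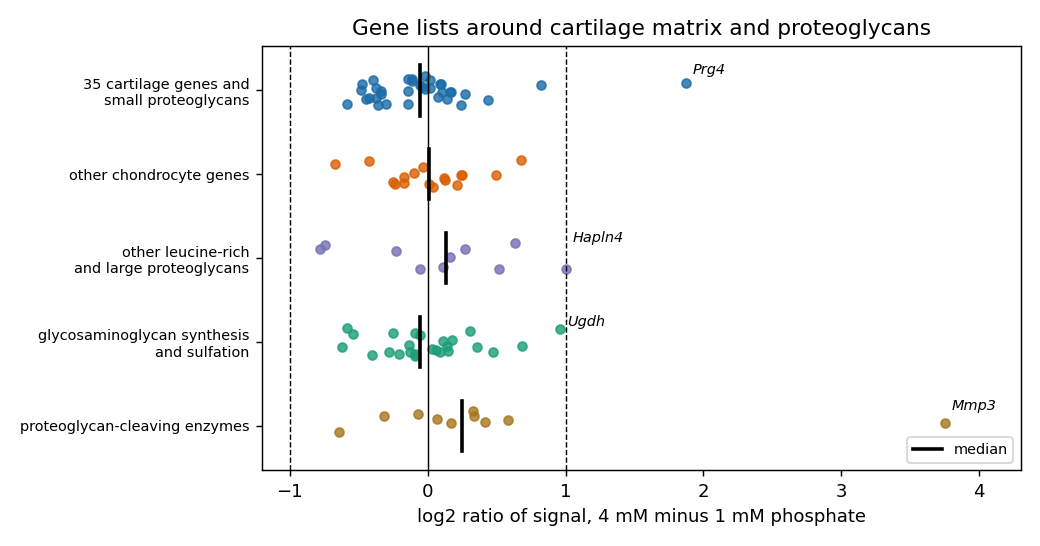
log2 ratio of signal (4 mM minus 1 mM phosphate, 1 array each) for the 35 cartilage genes and small proteoglycans and for the measured genes of 4 related lists; each point is a gene, spread vertically for sight only, and black bars are medians. Dashed lines mark 2-fold: Prg4, Mmp3 and Hapln4 lie at or beyond the upper one and no gene beyond the lower one.

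One scaling choice moved all 35 values together. Poly-A spikes, bacterial RNAs carried through labelling, were brighter on the 4 mM array by a median log2 ratio of 0.46, and setting them equal takes 0.46 off every ratio. The median of the 35 genes then became -0.52, that of all measured genes also -0.52, and Prg4 1.41. Directions given above for genes with ratios between 0 and 0.46, such as Sox9, Acan, Bgn, Dcn, Lum and Chad, turn under this choice, while differences between genes stay as they are. Apart from this scaling, Prg4 stayed between 1.70 and 1.95 and Cnmd between -0.53 and -0.48 under the settings tried. Each has 1 probe set with both signals above 100, so the floors and the choices of probe set could not change these ratios.

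**Figure D5:**
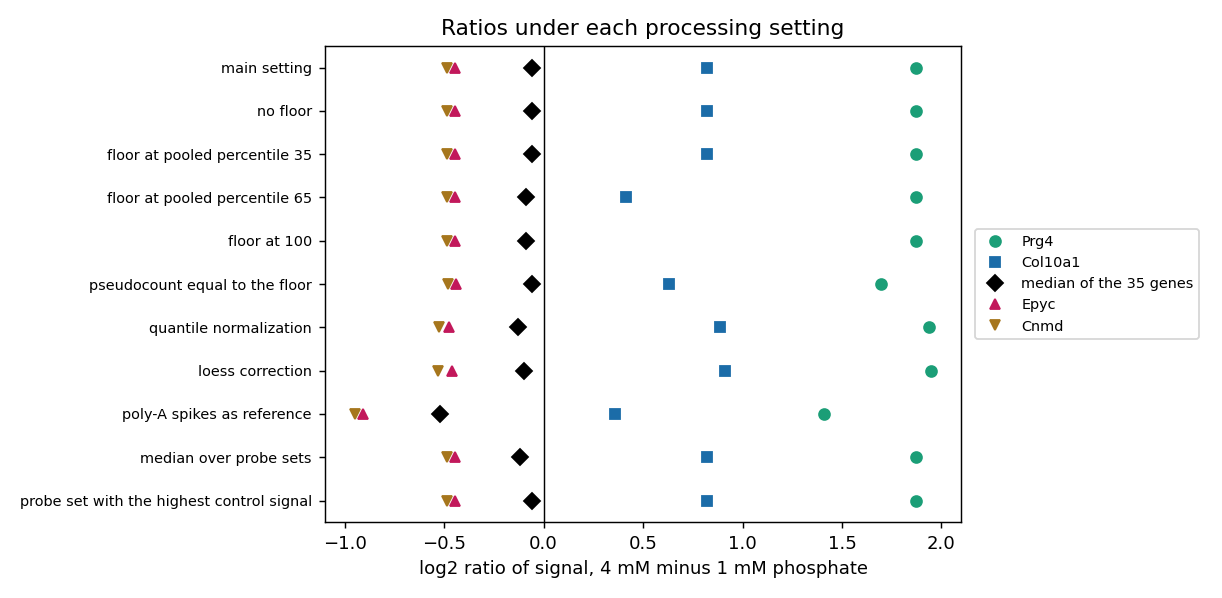
log2 ratio (4 mM minus 1 mM phosphate, 1 array each) of Prg4, Col10a1, Epyc, Cnmd and the median of the measured members of the 35 genes under each processing setting, 1 row per setting; Col10a1 was below a floor of 100 on both arrays and has no point there. Prg4 lies between 1.41 and 1.95 in every row, and with poly-A spikes as reference every point shifts by the same amount to lower values.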

How the data were processed

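Biotinylated cRNA from 100 ng of total RNA was hybridised to 1 Affymetrix mouse array per condition, per the labels' protocols. The authors deposited 1 linear intensity for each probe set of an array, made with MAS5 in GCOS 1.4, per the submitters' processing notes. The mean without the lowest and highest 2% of values was 200.00 on both arrays, so differences in total mRNA per cell are not seen. The probe annotation named 1 gene for 34945 of 45037 mouse probe sets (932 several, 9160 none), and symbols were checked by Entrez identifier against the RefSeq table of GRCm38.p6, where 0 changed. Above the floor lay 49.0% of mouse probe sets on the 1 mM array and 51.0% on the 4 mM array; the number of arrays limits the precision. Ratios were computed in Python 3.11.15 (pandas 2.3.3, statsmodels 0.14.6) as described beside the results, and the script was tested on simulated data. All 35 genes could be named, and of each related or marker list the genes past 2-fold and the highest and lowest. Ibsp and Col1a1 were named from the osteoblast markers. Sp7, Pth1r, Alpl, Tnc, Tnmd, Thbs4, Mef2c, Adamts4 and Adamts5 were named after their values were seen. The genes, lists and settings were chosen with earlier results of these data known. Alternatives were values with no floor, floors at pooled percentiles 35 and 65 and at 100, a pseudocount equal to the floor, quantile normalization, a loess correction, poly-A spikes as reference, the median over probe sets and the probe set with the highest control signal. Probe-level data and detection calls were not analysed here.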

Additional observations from a re-analysis of the deposited data

Results flagged for a closer look

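Poly-A spike RNAs are no genes of the mouse and serve here only as an alternative scaling reference. Their 24 probe sets were without exception brighter on the 4 mM array, by 0.20 to 0.65 on the log2 scale (median 0.46). Hybridisation spikes, which join the sample only after labelling, differed by a median of 0.23 over 18 probe sets. This signal outside the gene measurements differs between the arrays by more than the median ratio of the 35 genes, and its part in their values was not tested.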

How the results depend on the processing

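Prg4 was the one gene of the 35 at least 2-fold higher under the main setting and all 10 alternatives, and no gene was 2-fold lower under 9 of them. With the poly-A spikes as reference, 1 gene (Scrg1, at -1.05) was 2-fold lower, 19 lay within 1.5-fold in place of 32, and the median of the 35 became -0.52 in place of -0.06. Under the other 9 alternatives 29 to 33 lay within 1.5-fold and the median was between -0.13 and -0.06. Floors at the pooled percentile 65 and at 100 left 32 and 30 of the 35 measured. Quantile normalization moved 5 genes by more than their technical SD, all of them bright small leucine-rich proteoglycans, and the median over probe sets moved Chst11 to -0.33 and Matn2 to -0.35. Why these scalings differ for bright genes was not tested. No paired analysis was possible because each condition has 1 array, and no replicate could be left out. Values near the floor, such as those of Scrg1, Sox5, Col10a1, Matn3 and Ucma, are limited by signal over background.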
